A study of Mus musculus with 2 samples.

Results

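The genes described here make peptides for MHC class I molecules, load them, or switch the class I genes on. They were chosen by name as 10 genes: B2m, Tap1, Tap2, Tapbp, Psmb8, Psmb9, Psmb10, Psme1, Psme2 and Nlrc5. Each was looked up among the probe sets that the platform annotation pairs with a single gene symbol. Of the 10 genes, 7 had such a probe set, out of 17097 genes with a value in all. The other 3, B2m, Tap1 and Tap2, which encode the invariant light chain and the peptide transporter, had none under this annotation and were not analysed here.

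The study set out to compare CD4 T cells primed by antigen-presenting cells (APC) with and without a transgene for OX40L, the ligand of the costimulatory receptor OX40. Naive CD4 T cells, high for CD62L, low for CD44 and negative for Foxp3, were sorted from 6-week-old C57/Bl6 mice with a Foxp3-eGFP reporter, which turns regulatory T cells green. They were stimulated for 48 hours with soluble anti-CD3 antibody and T cell-depleted splenocytes. Mitomycin C, at 50 ug/ml, had been used beforehand to keep the splenocytes from dividing. The APC were wild type in the group called Wt APC and came from mice with an OX40L transgene in the group called OX40L-Tg APC. The other labelled conditions were the same in both groups, and the living CD4 T cells were sorted again before RNA was taken. The labels name no promoter for the transgene and no number of mice behind a sample. Each group has 1 Affymetrix HT MG-430 PM array, so there is no replicate, no standard error and no test. A difference is the log2 value with OX40L-Tg APC minus that with Wt APC, and values in units are linear probe set intensities, Wt APC first.

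MHC class I molecules show fragments of the cell's own proteins to CD8 T cells and NK cells. The fragments are cut by the proteasome, carried into the endoplasmic reticulum by the transporter of Tap1 and Tap2, and fitted to the heavy chain and B2m with the help of tapasin, the product of Tapbp. Interferon-gamma is known to exchange the catalytic subunits Psmb5, Psmb6 and Psmb7 of the standard proteasome for Psmb8, Psmb9 and Psmb10, which gives the immunoproteasome, and to raise the PA28 activator made of Psme1 and Psme2. Lymphocytes carry immunoproteasomes without infection. Nlrc5 is a transactivator that works in the nucleus on promoters of class I genes and their partners.

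The upstream sequences of 4 of these genes are shown because interferon and Nlrc5 are known to act through motifs near the start of class I pathway genes. The 4 genes were picked with their values known, and a link between motifs and differences was not tested. RefSeq's table for GRCm38.p6 held an upstream window for 6 of the 7 measured genes. Nlrc5 is named only. Each sequence is the 250 bases before the annotated start, 5′ to 3′ on the gene's strand. Capitals mark matches, on either strand, to any of 6 motifs: the interferon-stimulated response element (ISRE, searched as GAAA, any 2 bases, GAAA), the gamma-activated site (GAS, searched as TTCNNNGAA), a kB site (GGG, any 2 bases, TTTCC), the Y box (CCAAT), the first bases of a cyclic AMP element as found in the X box (TGACG) and the GC box (GGGCGG). The Tapbp window is chr17:33919228-33919477 on the plus strand, the Psmb8 window chr17:34197945-34198194 on the plus strand, the Psmb9 window chr17:34187331-34187580 on the minus strand, and the Psmb10 window chr8:105938393-105938642 on the minus strand.
Tapbp: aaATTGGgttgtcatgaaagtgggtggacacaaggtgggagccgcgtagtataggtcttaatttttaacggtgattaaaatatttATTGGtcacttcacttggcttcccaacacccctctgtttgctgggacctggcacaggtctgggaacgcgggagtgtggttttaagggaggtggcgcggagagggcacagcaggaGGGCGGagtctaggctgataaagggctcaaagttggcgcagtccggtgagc
Psmb8: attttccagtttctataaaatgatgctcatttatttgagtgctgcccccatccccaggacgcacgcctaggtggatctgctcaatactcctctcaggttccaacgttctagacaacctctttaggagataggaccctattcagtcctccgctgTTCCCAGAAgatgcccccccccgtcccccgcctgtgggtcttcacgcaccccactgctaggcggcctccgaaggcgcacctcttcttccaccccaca
Psmb9: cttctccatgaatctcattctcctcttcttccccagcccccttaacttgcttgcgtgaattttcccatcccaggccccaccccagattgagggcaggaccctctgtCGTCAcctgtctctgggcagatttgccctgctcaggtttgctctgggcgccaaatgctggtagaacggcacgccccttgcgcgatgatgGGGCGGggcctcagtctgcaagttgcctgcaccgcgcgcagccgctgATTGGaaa
Psmb10: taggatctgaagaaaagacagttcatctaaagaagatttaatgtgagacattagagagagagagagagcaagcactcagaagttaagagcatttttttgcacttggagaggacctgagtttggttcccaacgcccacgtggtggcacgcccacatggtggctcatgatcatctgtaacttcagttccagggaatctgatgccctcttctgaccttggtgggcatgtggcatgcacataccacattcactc

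The Psmb8 window held a GAS match at -97 to -89 and no other motif. Matches to the GAS letters were found in 7.02% of the 32851 upstream windows of all genes. The Psmb9 window held a TGACG match on the opposite strand at -144 to -140, a GC box at -55 to -50 and a Y box at -8 to -4. Psmb9 and Tap1 are divergent neighbours whose starts lie 226 bases apart, so the Psmb9 window spans the whole stretch between them and the first 25 bases of the Tap1 transcript. The Tapbp window held a Y box at -248 to -244 and at -165 to -161 and a GC box at -51 to -46. None of the 6 motifs was in the Psmb10 window. The Psme1 window held a GC box, and the windows of Psme2, which has 2 annotated starts, held GC box and TGACG matches. ISRE letters, present in 2.98% of all windows, and kB letters, present in 1.41%, were in no window of the 6 measured genes. The window of B2m, listed but without a value here, held both, at -139 to -130 and at -126 to -117. Y box letters were in 33.9% of all windows, TGACG in 17.8% and GC box letters in 32.7%, so matches to these are common. A match describes the letters and is no evidence of binding.

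T cells from both cultures read well above background for all 7 genes. The background level was set from 56 genes known from other organs, 3 of which read above it, and stood at 44.9 units for Wt APC and 46.1 units for OX40L-Tg APC. With OX40L-Tg APC, 5 of the 7 genes read lower and 2 read higher, where 46% of the 10541 genes above the floor read lower. The floor is the median intensity of an array. The median difference of the 7 genes was -0.13, beside 0.02 for all genes above the floor. None of the 7 reached a 1.5-fold difference in either direction. Across the 10541 genes, 3.36% were lower by 1.5-fold or more and 3.85% higher by 1.5-fold or more. With so few members, 0 of 7 is close to that background share and sets the genes apart in neither direction. On the same arrays T cell markers had a median difference of -0.25 and MHC class II genes one of 0.41, and the part of either in the class I values was not tested.

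**Figure D1:**
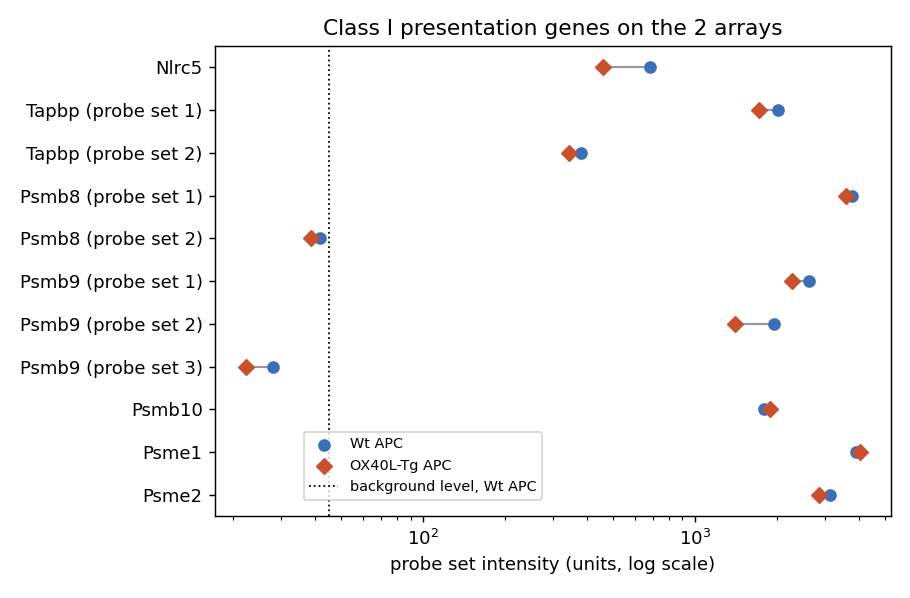
Intensity in units on a log axis of every probe set of the 7 measured class I presentation genes, with Wt APC as circles and OX40L-Tg APC as diamonds. The dotted line is the background level of 44.9 units on the Wt APC array. Nlrc5 shows the widest gap between the arrays among the genes' main probe sets, and the second probe set of Psmb9 a wider gap than its first.

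Nlrc5, the class I transactivator, had the lowest difference of the 7. It read 682 units with Wt APC against 458 with OX40L-Tg APC, a 1.49-fold lower value and a difference of -0.58. Only 3.52% of all genes above the floor had a lower difference. Among the 1353 genes with a mean between 500 and 1000 units, 2.22% had a lower one, and the SD of their differences was 0.35. The value rests on 1 probe set, annotated by an expressed sequence tag, so no other probe set of the gene checks it. Centring the differences on the median of all genes, or correcting them for level, takes Nlrc5 past 1.5-fold, at -0.59 and -0.60.

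Tapbp, which encodes tapasin, the protein that bridges the peptide transporter and the empty class I molecule, read 2025 units with Wt APC against 1715 with OX40L-Tg APC. Its difference was -0.24, or 1.18-fold lower. A separate probe set read 381 and 345 units, a difference of -0.14 in the same direction. Of the 814 genes with a mean between 1000 and 2000 units, 8.60% had a lower difference than Tapbp. The SD of the differences in that range was 0.25.

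The catalytic immunosubunits did not all read lower. Psmb9, the beta 1i subunit LMP2, read 2628 units with Wt APC against 2268 with OX40L-Tg APC, a difference of -0.21. Of the 389 genes with a mean between 2000 and 4000 units, 5.66% had a lower one, and the SD of their differences was 0.17. Psmb8, the beta 5i subunit LMP7, read 3784 and 3598 units, a difference of -0.07. Psmb10, the beta 2i subunit MECL-1, read 1791 and 1882 units and was the highest of the 7 genes by difference, at 0.07. The Psmb9 and Psmb10 differences were of opposite sign and 1 array a group cannot tell whether they differ.

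Psmb9 is listed with 3 probe sets, which differ in size but not in sign. A further probe set read 1962 units with Wt APC against 1407 with OX40L-Tg APC, a difference of -0.48, and the third, below background on both arrays, read 28.0 and 22.3 units. The annotation ties these 2 probe sets to an expressed sequence tag, and the first to a RefSeq transcript. Whether the tag's probe sets read Psmb9 or a neighbour such as Tap1 was not tested, so the -0.48 may not be a value of Psmb9 alone. The SD between the differences of the 2 probe sets above background was 0.19, larger than in 90.7% of 2761 genes with several such probe sets. Averaging all 3 probe sets, with the same limit, gives -0.34 in place of -0.21. Psmb8 has a second probe set too, at 41.7 and 38.7 units, which is below background on both arrays.

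Both subunits of the PA28 activator, which opens the gate of the proteasome, were abundant on both arrays. Psme1, the alpha subunit, read 3928 units with Wt APC against 4043 with OX40L-Tg APC, a difference of 0.04. Psme2, the beta subunit, read 3148 and 2870 units, a difference of -0.13. The subunits assemble into 1 ring, and their genes lie close together with only Emc9 between them in the RefSeq order of protein-coding genes. Emc9, a subunit of a membrane insertion complex and no member, read 56.2 and 36.5 units, the second below background. Psme3, which encodes the nuclear activator PA28 gamma and is not part of the immunoproteasome, read 644 and 731 units, a difference of 0.18, with -0.04 in its other probe set.

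**Figure D2:**
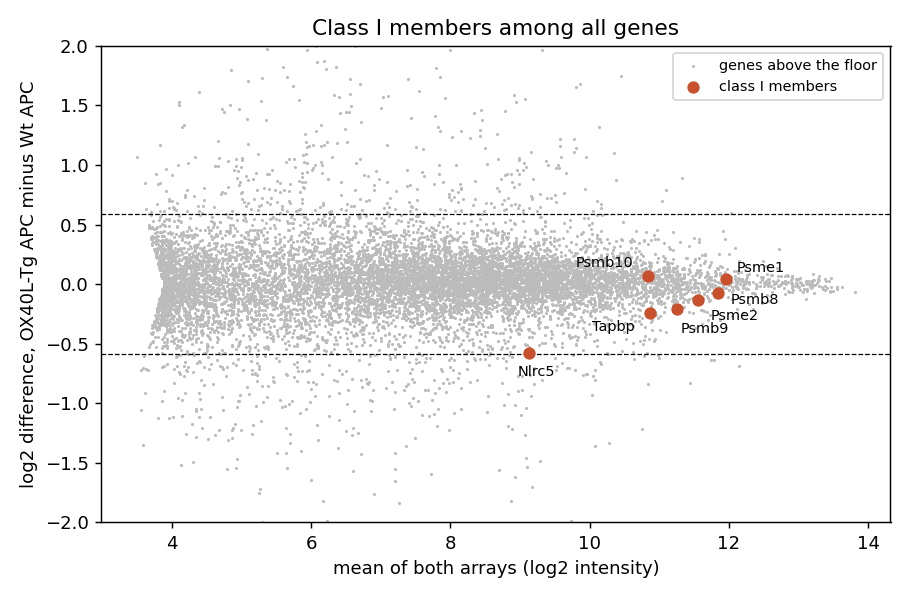
Log2 difference (OX40L-Tg APC minus Wt APC) against the mean log2 intensity of both arrays for the genes above the floor, with the 7 measured class I presentation genes in colour and dashed lines at 1.5-fold. The 7 genes lie inside the dashed lines, with Nlrc5 next to the lower line, and 56 other genes lie beyond the plotted range.

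The standard proteasome subunits that the immunosubunits replace read nearly alike on both arrays. Psmb5 read 2152 units with Wt APC against 2357 with OX40L-Tg APC, a difference of 0.13. Psmb6 read 2096 and 2139 units, a difference of 0.03, and Psmb7 read 3779 and 3675 units, a difference of -0.04. Set against its counterpart, Psmb8 was lower by a gap of -0.20 between the differences and Psmb9 by -0.24, whereas Psmb10 was higher by 0.11. These gaps compare changes and not levels, since probe sets of different genes have no common scale. Each gap holds the scatter of both genes, and the SD of single differences among genes at 2000 to 4000 units was 0.17. With 1 array a group the gaps cannot be told from scatter.

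The rest of the proteasome also differed by little. Of the 14 standard subunits of the 20S core, which include Psmb5, Psmb6 and Psmb7, 9 read higher and 5 lower with OX40L-Tg APC. Their differences ran from -0.07 for Psmb2 to 0.16 for Psmb3, with a median of 0.03. Of 16 measured subunits of the 19S regulator, which unfolds tagged proteins, 15 read higher, where 54% of all genes did, with a median of 0.11. Psmd12 and Psmd1 stood at 0.18 and 0.17, and Psmc2 at 0.16. None of the 30 standard 20S and 19S subunits had a difference below that of Psmb8 or of Psmb9, while 5 of the 14 core subunits were above Psmb10. The lowest of the 30, Psmb2, stood at -0.07, as did Psmb8. The SD of differences among genes at 2000 to 4000 units was 0.17, so this order is within the scatter. Among 7 other activators and assembly factors the median was 0.08. They include Pomp, the chaperone that builds the core, at 0.13, Psmg3 at 0.10 and Psmg4 at -0.08, just below Psmb8. None of these 37 genes reached 1.5-fold. Of all genes at 1000 to 2000 units 2.58% did, and of those at 2000 to 4000 units 2.06%, so none of 37 is near that share.

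The classical class I heavy chains read at nearly the same level in both cultures. H2-K1 read 7570 units with Wt APC against 7822 with OX40L-Tg APC, a difference of 0.05, and H2-D1 read 4794 and 5004 units, a difference of 0.06. Heavy chain genes are closely alike in sequence, and these values come from probe sets marked as cross-hybridising, so they may be the sum of several genes. Of 26 heavy chain and class I-like genes listed, 10 were above the floor, 6 of them higher and 4 lower, with a median of 0.05. Among all genes above the floor 54% read higher and 46% lower, so this split is near that share. H2-M3, which presents formylated peptides, differed by 0.14 and H2-Q4 by -0.14. Past 1.5-fold were 1 gene lower and 1 higher, beside 3.36% and 3.85% of all genes above the floor. These were Cd1d1, which presents lipids to NKT cells, at 89.0 and 44.8 units, and H2-Q10, at 24.9 and 104 units. For both of these genes 1 of the values was below background, and H2-Q10 has a single probe set.

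Genes that trim peptides or assist loading were all within 1.5-fold by their main probe sets. Of all genes above the floor, 3.36% were lower and 3.85% higher by that much, so for this short list it is near the background share. Of the 13 trimming and loading genes above the floor, 7 read higher, where 54% of all genes did, and 6 lower. Their median was 0.06. Erap1, the aminopeptidase that trims peptides in the endoplasmic reticulum, read 545 and 457 units, a difference of -0.25, with -0.59 in its lower probe set. Calr, the chaperone calreticulin of the loading complex, read 2967 and 3516 units, a difference of 0.25, with 0.24 in its other probe set. Thop1, a cytosolic peptidase, differed by 0.31 and Uggt1, which checks the folding of glycoproteins, by 0.22.

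**Figure D3:**
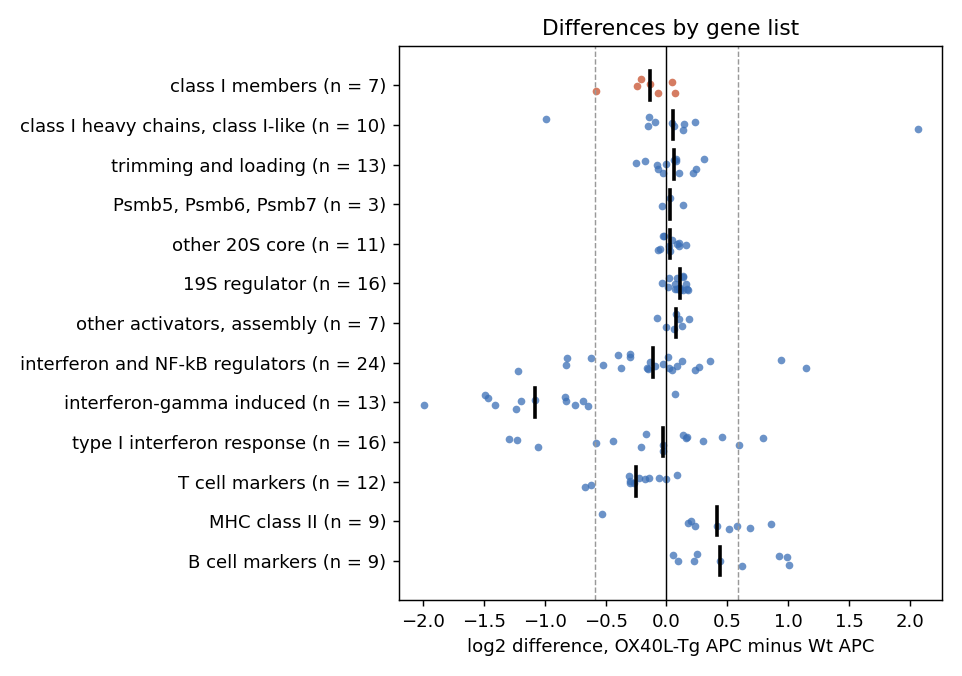
Log2 difference (OX40L-Tg APC minus Wt APC) of the genes above the floor in each list, 1 point a gene, with black bars for medians and dashed lines at 1.5-fold. The median was -0.13 for the class I members, 0.03 for the other 20S core subunits, 0.11 for the 19S regulator and -1.08 for the interferon-gamma induced genes.

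Genes that act upstream of the class I pathway were more divided. Of 24 regulators above the floor, 14 read lower and 10 higher, where 46% of all genes read lower. Their median of -0.11 turns to 0.02 without probe sets marked s, x or a in their names. That setting leaves out Irf1, Irf2, Irf9, Ifnar2 and Nfya, which read lower, and Socs1 and Rela, which read higher. Nfya keeps only a probe set below the floor, and Rfxank turns from -0.30 to 0.18 in its other probe set. At least 1.5-fold lower were 4 of the 24 and at least 1.5-fold higher 2, beside 3.36% and 3.85% of all genes above the floor. Ifng, the main inducer of the pathway, read 351 units with Wt APC against 198 with OX40L-Tg APC, a difference of -0.83. Irf1, a factor that binds ISRE motifs of class I genes, read 1318 and 920 units, a difference of -0.52, and Irf8, a related factor, read 2633 and 1133 units, a difference of -1.22. Ifngr1, the ligand-binding receptor chain, and Ifnar1, a chain of the type I receptor, differed by -0.62 and -0.82. Their partner chains Ifngr2 and Ifnar2 differed by 0.26 and -0.16, with -0.72 and -0.79 in the other probe sets of Ifnar2. These 4 receptor genes were named after their values were seen. The kinase Jak1 differed by -0.40, with 0.03 in 1 of its 3 probe sets, whereas Jak2, its partner at the interferon-gamma receptor, read 603 and 1335 units, 1.15 higher. The feedback inhibitor Socs3 was higher by 0.94. Rfx5, a subunit of the complex through which Nlrc5 reaches class I promoters, read 197 and 251 units, a difference of 0.35. The other subunits of that complex, Rfxank and Rfxap, differed by -0.30 and -0.03. Ciita, the class II counterpart of Nlrc5, was below background on both arrays.

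Other interferon-gamma induced genes showed far larger differences than the class I members on the same arrays. Of 13 GTPase and chemokine genes above the floor, 12 were lower by 1.5-fold or more in the OX40L-Tg APC culture. Among all genes above the floor 3.36% were. The median of the 13 was -1.08. All 12 differences lay below that of Nlrc5, the lowest member, the closest being Igtp at -0.64. Iigp1, a GTPase of the immunity-related family, read 1704 and 428 units. Gbp10 and Gbp7, guanylate-binding proteins, differed by -1.49 and -1.46 and the chemokine Cxcl10 by -1.40. The list was chosen with its direction already known from these arrays, so the contrast is a description. Among 16 type I interferon genes, 10 were below background on both arrays. The 16 genes were divided, with 9 lower, where 46% of all genes above the floor were. Their median of -0.03 turned to 0.30 with the floor at the 75th percentile and to 0.07 with the floor at the background level. Ifit2 differed by -1.29 and Usp18 by 0.59. Dhx58 and Ddx58, cytosolic RNA sensors, stood at -0.44 and 0.30.

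Psmb9, Tap1, Psmb8 and Tap2 sit side by side within the MHC class II region of chromosome 17, and most of their class II neighbours read higher with OX40L-Tg APC. In RefSeq order the class II genes H2-DMa, H2-DMb2 and H2-DMb1 come before Psmb9, and H2-Ob, H2-Ab1, H2-Aa and H2-Eb1 follow Tap2. H2-DMb2 read 102 units with Wt APC against 184 with OX40L-Tg APC, a difference of 0.86. H2-Aa, a chain of the main class II molecule, read 403 and 573 units, and H2-Eb1 read 371 and 494 units. H2-Ob was the exception at -0.53, but it was below background on both arrays. H2-DMb1, among those that read higher, was at 35.8 and 57.5 units, the first below background. Between these neighbours Psmb9 and Psmb8 stood at -0.21 and -0.07. Tapbp, also on chromosome 17, lies outside this group, with Zbtb22 and Rgl2 beside it at 0.17 and 0.09.

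**Figure D4:**
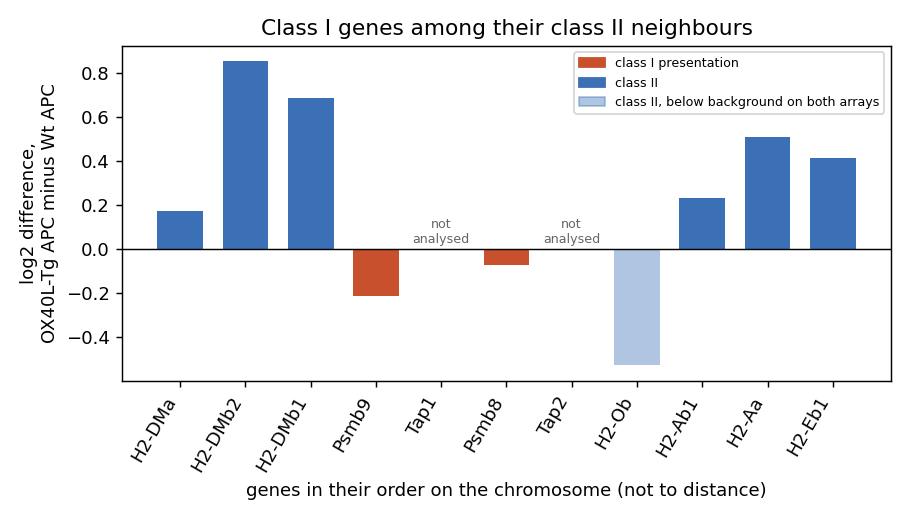
Log2 difference (OX40L-Tg APC minus Wt APC) of the protein-coding genes from H2-DMa to H2-Eb1 in their RefSeq order, with class I presentation genes and class II genes in separate colours and the gene below background on both arrays in pale colour. Psmb9 and Psmb8 lie below 0, and so does H2-Ob, while the other class II genes lie above it; Tap1 and Tap2 were not analysed.

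Markers of other cell types differed between the arrays as well. For comparison with the counts below, 46% of all genes above the floor read lower with OX40L-Tg APC and 54% higher. B cells and other APC also transcribe class I pathway genes, and in a bulk sample fewer cells of a type and less RNA per cell cannot be told apart. T cell markers were abundant, with Cd4 at 1410 and 1143 units, Cd2 at 4359 and 4639 units and Thy1 at 4642 and 3849 units, but 11 of 12 read lower with OX40L-Tg APC, with a median of -0.25 and a summed level of 27852 and 23836 units. MHC class II genes were higher in 8 of 9, with a median of 0.41, a summed level of 3014 and 4017 units, and Cd74 at 901 and 1346 units and H2-DMa at 523 and 591 units. B cell markers were higher in 9 of 9 above the floor, with a summed level of 1261 and 1909 units. Fcer2a read 259 and 520 units and Ms4a1 244 and 291 units. Of the 12 B cell markers with a value, 5 were below background on both arrays, among them the factor Pax5 and some of the 9. Dendritic cell markers were higher in 6 of 7 above the floor, with a summed level of 1309 and 2174 units. Batf3, at 95.1 and 574 units, had the largest rise in that sum, and Ccl22 and Fscn1 differed by 0.56 and 0.09. Flt3 read 46.1 and 43.3 units, the second below background. Below background on both arrays were 5 of 10, Itgax, Zbtb46, Xcr1 and Clec10a among them. Macrophage markers summed to 242 and 251 units, with 13 of 14 below background on both arrays, Tyrobp among them, and Mpeg1 at 46.4 and 41.5 units. All 7 neutrophil markers, Elane and Ltf included, and all 6 adipocyte markers, Retn and Pparg included, were below background on both arrays. The adipocyte genes were checked because the labels' protocol for RNA extraction mentions adipose tissue. Among 8 CD8 T and NK cell markers, 5 were below background on both arrays, Cd8b1 read 191 and 239 units, Gzma 104 and 3048 units, and Klrk1 160 and 21.3 units, the second below background. Of 6 erythroid markers, 5 were below background, Klf1 among them, and Hba-a1 read 1161 and 207 units. The part of these cell types in the class I values was not tested.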

How the data were processed

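Gene expression was measured on 2 arrays, 1 for Wt APC and 1 for OX40L-Tg APC. The deposited table holds 1 linear intensity for each probe set. Per the submitters' processing notes the authors used RMA, with no version named. RMA equalises arrays, so these values cannot show a change in RNA per cell, and it draws low values together. Values ran from 4.69 to 14686 units, and log2 was taken first.

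Of 45141 probe sets, the platform annotation pairs 28898 with 1 gene symbol and 551 with several, and 15692 are unnamed here. A gene took its probe set with the highest mean. The floor, reached on at least 1 array, was the median of each array, 3.88 on the log2 scale. The genes of other organs set the background level, at their 95th percentile. Gene order and symbols follow RefSeq GRCm38.p6, in which 28689 Entrez numbers were found.

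With 1 array a group no test was possible, and the number of arrays limits the precision. Scatter was judged from all genes and from probe sets of the same gene, whose differences had a median SD of 0.10 over 4195 genes above the floor. The members and lists were chosen with earlier results of these data known. The genes named are all members, the 4 genes of each pathway list with the largest difference among those above the background level on at least 1 array, fixed regulators and counterparts, and the 2 most abundant markers of each cell type. H2-K1, H2-D1, Psmb2, Igtp, Emc9, Pax5, Cd4, Klrk1, Rfxank, Rfxap, Ifngr1, Ifngr2, Ifnar1, Ifnar2 and the neighbours in gene order were named outside that rule, after their values were seen. So were Batf3, Flt3, Itgax, Zbtb46, Xcr1, Clec10a, Irf2, Irf9, Nfya, Socs1 and Rela. Python 3.11.15, numpy 2.4.6, pandas 2.3.3, statsmodels 0.14.6 and matplotlib 3.10.9 were used, and the scripts were tested on simulated arrays. Alternatives were the mean of all probe sets, a floor at the 75th percentile or none, a lowess correction (span 0.3), median centring and log2(value + 16). Another left out probe sets marked s, x or a, by the letter in their names. A floor at the background level was added after seeing the data.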

Additional observations from a re-analysis of the deposited data

How the results depend on the processing

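No paired analysis was possible because each group has 1 array and the labels carry no replicate number, and no array could be left out. The count of class I presentation genes lower by 1.5-fold or more was 0, and 1 after centring on the median and 1 after the lowess correction, where Nlrc5 passed; it was 0 under the other 6 alternatives. The median difference of the genes ranged from -0.17 to -0.13 over all settings. Each gene with a value kept its sign under every alternative that gave one. Both probe sets of Psmb8 are marked x or a, so the gene had no value without probe sets marked s, x or a. The largest move was that of Psmb9, from -0.21 to -0.34 with the mean of all probe sets. The median of the adipocyte list, all below background, turned to -0.026 without a floor. Without probe sets marked s, x or a, the median of the regulator list turned to 0.02 and that of Psmb5, Psmb6 and Psmb7 to -0.0057. Under the same setting the median of CD8 T and NK cell markers turned from 0.17 to -0.045. The type I interferon median turned from -0.03 to 0.30 with the floor at the 75th percentile and 0.07 with the floor at background, and the macrophage median from 0.11 to -0.16 with the latter. Probe sets near background limit what can be read from low genes.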
